A study of Mus musculus with 6 samples.

Results

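The genes described here encode 9 proteins of the PI3K, Akt, mTOR and Foxo1 signalling pathway. They were read in cells labelled as regulatory T cells (Treg), from mice with and without deletion of the histone acetyltransferase p300. The genes are Pik3cd, Pik3r1, Inpp5d, Akt1, Akt2, Foxo1, Tsc1, Rheb and Mtor. They were found in the deposited table as every probe set whose platform annotation gives one of these names as its only gene symbol. This gave 21 of 22690 probe sets, for 9 of 12393 named genes. A probe set is a group of short array probes that read the same transcript.

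In the p300-deleted group the genotype is fl-p300/Foxp3cre, a floxed p300 allele with a Cre recombinase expressed from Foxp3. In the control group it is Foxp3cre alone, although the sample titles call these arrays WT. Both groups therefore carry the Foxp3cre allele, and all mice were on the C57Bl/6 background. Total RNA came from CD4+CD25+ cells separated magnetically, with 3 samples per group and 1 array each. Cre expressed from Foxp3 acts in cells that express Foxp3, so other cells in the CD4+CD25+ fraction would keep p300. The labels do not state age, sex or pooling of animals. They do not say either that the samples are from different animals, and p-values then cover only the spread among these samples, some of which may be technical.

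In T cells, phosphoinositide 3-kinase (PI3K) makes the membrane lipid PIP3 after stimulation through the T cell receptor, CD28 or the IL-2 receptor. PIP3 recruits the kinase Akt, which holds the transcription factor Foxo1 out of the nucleus and inhibits the TSC complex. With TSC inhibited, the small GTPase Rheb activates the kinase mTOR, which drives protein synthesis and growth. Strong signalling through this pathway is known to oppose Treg identity, and Foxo1 is known to support Foxp3 and the trafficking genes of Treg. These proteins are controlled largely by phosphorylation, which an RNA array does not measure.

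The values are log2 RMA values per probe set. Array medians lay between 5.38 and 5.46, and the arrays correlated across probe sets at 0.99453 to 0.99591 within the p300-deleted group and 0.98807 to 0.99315 within the controls. The targeted gene cannot check the labels, because 0 probe sets are annotated to Ep300. As a check of the labelled cell type, Il2ra, which encodes the CD25 used for separation, read 9.16, 9.09 and 9.17 in p300-deleted arrays, against 8.99, 8.62 and 9.07 in controls. Foxp3, the defining transcription factor of Treg, read 2.57, 3.04 and 3.15 in p300-deleted arrays, against 9.63, 9.35 and 9.38 in controls. The p300-deleted readings lie below the lower quartile of their arrays (3.26, 3.29 and 3.28), so the defining marker was near background in that group at its 1 probe set. Of all 8 Treg markers tested, Izumo1r, a folate receptor family member of Treg, rose (0.62, limma adjusted p = 0.0459), Foxp3 fell and 6 did not pass. Among those 6, Ctla4, Gpr83 and Ikzf2 were at 0.30, 0.32 and 0.60, Il2ra and Nrp1 at 0.25 and 0.05, and Tnfrsf18 at -0.16. For Ikzf2 (SE 0.37, limma adjusted p = 0.448), Nrp1 and Tnfrsf18 the groups overlapped, and 2 of the 3 probe sets of Nrp1 had the opposite sign. Of the 8 markers, 6 had positive values. A sign of RNA quality, how much higher the 3' than the 5' control probe set of Gapdh read, was 0.09, 0.14 and 0.06 in p300-deleted arrays, against 0.23, 0.59 and 0.21 in controls, and control 2 was the highest. Probe sets for 18S ribosomal RNA, which serve as controls, averaged 7.74, 9.47 and 7.91 in p300-deleted arrays, against 5.68, 6.03 and 8.69 in controls, so controls 1 and 2 were lowest and control 3 lay among the p300-deleted arrays. With the 18S reading as a covariate, 15 genes passed in place of 149. In bulk RNA, fewer cells of a type and less RNA per cell cannot be told apart.

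None of the 9 genes passed the test of a difference between the p300-deleted and control samples of CD4+CD25+ cells. Each gene was read by its brightest probe set, and 0 of 9 had an adjusted p under 0.05 in limma, against 149 of all 8675 genes tested (1.72%). At an unadjusted p under 0.05 there was 1 of 9, Akt1, against 18.1% of all genes. The log2 differences (p300-deleted minus control) ran from -0.31 for Akt1 to 0.07 for Tsc1, with a median of -0.08 over the 9 genes and -0.03 over all genes tested. At the brightest probe sets the 95% intervals of the 9 differences together spanned -0.56 to 0.36. None of these reached a difference of 1, which is 2-fold. Intervals of some dimmer probe sets of the same genes did. They ran from -0.11 to 1.72 at Pik3cd 1422991_at, 0.21 to 1.35 at Pik3r1 1451737_at and -1.06 to -0.31 at Foxo1 1416981_at. For 3 of 9 genes, Akt1, Foxo1 and Rheb, p300-deleted and control values did not overlap, and all 3 genes were lower in p300-deleted cells. Over all genes this held for 23.7% in either direction and for 13.2% in the lower direction. Leaving out p300-deleted 1, 2 or 3 gave 35, 22 or 30 calls over all genes, and leaving out control 1, 2 or 3 gave 9, 118 or 230. In each of these 6 fits 0 of the 9 genes passed.

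**Figure D1:**
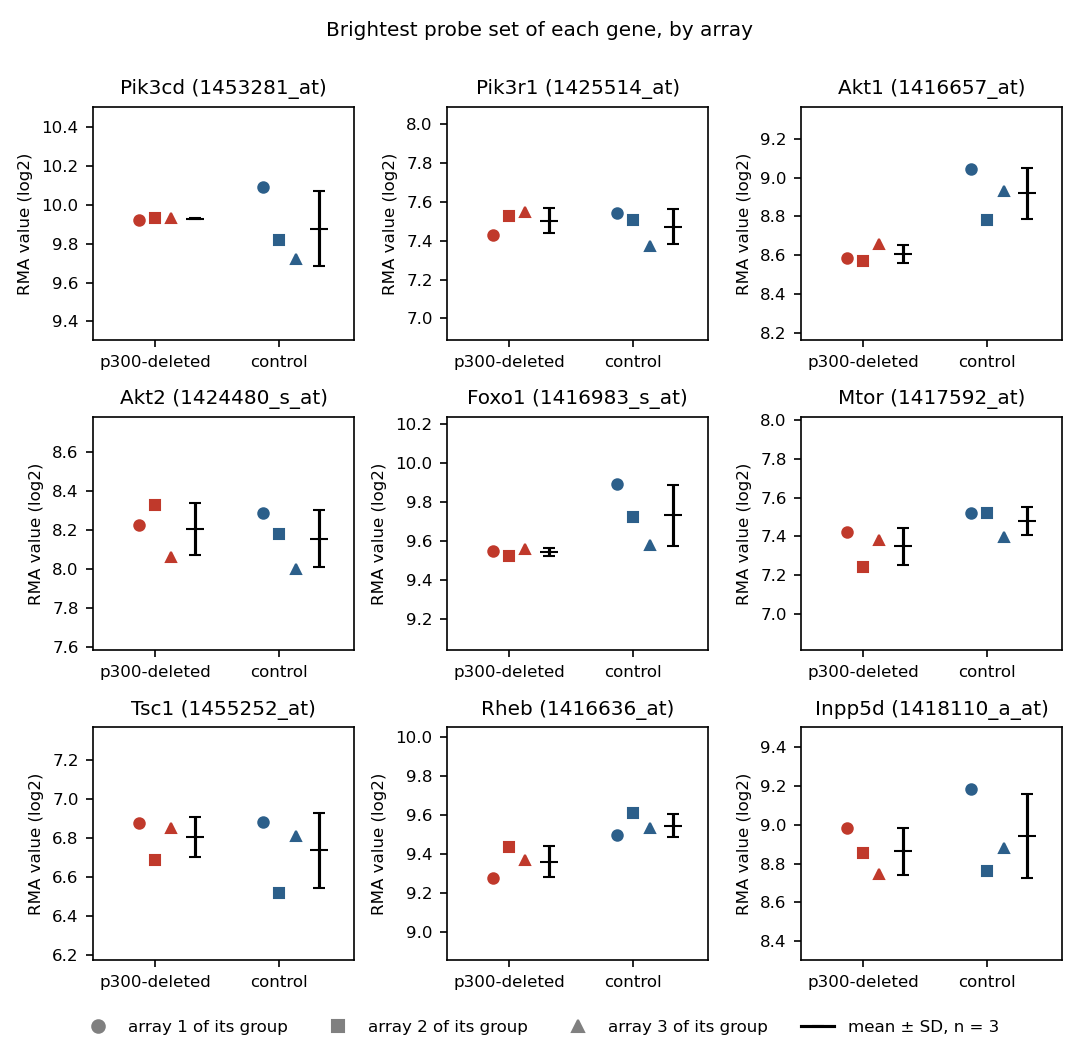
Values of the brightest probe set of each of the 9 genes (y axis, RMA value on the log2 scale, each panel spanning the same range) in p300-deleted and control arrays, with symbols for the array number in its group and bars for the mean ± SD (n = 3). The p300-deleted points of Akt1, Foxo1 and Rheb all lie below the control points, and the other 6 genes overlap.

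The PI3K subunits come first in the pathway. Pik3cd encodes p110delta, the catalytic subunit that predominates in leukocytes. Its brightest probe set, 1453281_at, read 9.92, 9.93 and 9.93 in p300-deleted arrays, against 10.09, 9.82 and 9.72 in controls. The p300-deleted values lay inside the range of the controls, and the difference was 0.05 (SE 0.12, limma adjusted p = 0.866, 95% interval -0.22 to 0.32).

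A pair of dimmer Pik3cd probe sets gave another picture. Probe set 1422992_s_at read 8.14, 8.04 and 8.09 in p300-deleted arrays, against 8.20, 6.82 and 7.99 in controls. Probe set 1422991_at read 5.41, 5.63 and 5.55 in p300-deleted arrays, against 5.19, 3.60 and 5.39 in controls. In both, control 2 alone lay far below the other 5 arrays. Their differences were 0.42 (SE 0.31, limma adjusted p = 0.602 over 22626 probe sets) and 0.80 (SE 0.40, adjusted p = 0.415). Without control 2 these became -0.0033 and 0.24, with adjusted p of 0.995 and 0.456.

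Pik3r1 encodes the regulatory subunit p85alpha and its shorter forms, which stabilise the catalytic subunit and bring it to receptors. The brightest probe set, 1425514_at, read 7.43, 7.53 and 7.55 in p300-deleted arrays, against 7.54, 7.51 and 7.37 in controls. The groups overlapped, and the difference was 0.03 (SE 0.10, limma adjusted p = 0.917, 95% interval -0.20 to 0.26). Probe set 1451737_at read 7.51, 7.57 and 7.42 in p300-deleted arrays, against 7.18, 6.07 and 6.92 in controls. Here all p300-deleted arrays were above all controls, with control 2 lowest. The difference was 0.78 (SE 0.25, limma adjusted p = 0.209), and 0.45 without control 2 (adjusted p = 0.181). Probe set 1425515_at read 6.27, 6.17 and 6.65 in p300-deleted arrays, against 6.68, 4.89 and 6.77 in controls. Its difference of 0.25 (SE 0.44, limma adjusted p = 0.862) turned to -0.37 without control 2 (adjusted p = 0.367). The 3 probe sets of Pik3r1 were thus all positive with all arrays, and of mixed sign without control 2.

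Inpp5d encodes SHIP1, the phosphatase of blood cells that removes a phosphate from PIP3 and so limits recruitment of Akt. At the brightest probe set, 1418110_a_at, the values were 8.98, 8.86 and 8.75 in p300-deleted arrays, against 9.18, 8.76 and 8.88 in controls. The groups overlapped, with control 1 highest, and the difference was -0.08 (SE 0.13, limma adjusted p = 0.807, 95% interval -0.38 to 0.23). The second probe set, 1424195_a_at, read 6.43, 6.13 and 5.96 in p300-deleted arrays, against 6.41, 5.67 and 6.22 in controls. Its difference was 0.08 (SE 0.20, limma adjusted p = 0.914) with all arrays and -0.14 without control 2 (adjusted p = 0.763).

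Akt1 had the smallest p of the 9 genes. It encodes one of the kinases recruited by PIP3, with broad roles in survival and growth. The brightest Akt1 probe set, 1416657_at, read 8.59, 8.57 and 8.66 in p300-deleted arrays, against 9.04, 8.78 and 8.93 in controls, so every p300-deleted array was below every control. The difference was -0.31 (SE 0.11, unadjusted p = 0.0184, limma adjusted p = 0.183, 95% interval -0.56 to -0.07). It did not pass the test over all genes. With array weights, which give less weight to arrays that fit the model poorly, it was -0.40 and passed (limma adjusted p = 0.0272), in a fit that called 1019 of 8675 genes in all. In the weighted fit over all probe sets the same probe set was at -0.38 and did not pass (adjusted p = 0.0777). Over the 19 alternatives of the gene fit its adjusted p ran from 0.0272 to 0.857.

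With all arrays the second Akt1 probe set did not show the same direction, and without control 2 it did. Probe set 1425711_a_at read 6.85, 6.73 and 6.81 in p300-deleted arrays, against 7.05, 5.92 and 7.06 in controls. All p300-deleted arrays were below controls 1 and 3 and above control 2. Its difference was 0.12 (SE 0.28, limma adjusted p = 0.897) with all arrays and -0.26 (SE 0.10, adjusted p = 0.344) without control 2.

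The promoter at 1 annotated start of Akt1 also holds the letters that Foxo factors are known to bind. The promoter at its other start, chr12:112674277-112674526, does not. The 7-base core GTAAACA was searched on both strands in the 250 bases before each annotated start of transcription, with sequences from RefSeq (GRCm38.p6). Of 16 such windows of the 9 genes, 1 holds it, against 3.17% of 32851 windows of all genes. Among 18 windows of 13 genes known as Foxo1 targets in T cells, 1 holds it, in Bcl2l11, which encodes the cell death protein Bim. The 37-base stretches around both matches are shown because Foxo1 is the transcription factor of the pathway and both genes were read on the arrays. Capitals mark the core, which in Akt1 appears as its reverse complement. The Akt1 stretch lies at chr12:112675024-112675060, on the minus strand of the genome, and the Bcl2l11 stretch at chr2:128125796-128125832, on the plus strand, and the cores begin 161 and 227 bases before the start.
Akt1: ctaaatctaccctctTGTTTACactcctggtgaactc
Bcl2l11: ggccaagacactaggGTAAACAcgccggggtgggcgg

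A match of letters does not show that a factor binds there. Bcl2l11 read 7.88, 7.87 and 8.04 in p300-deleted arrays, against 8.29, 8.05 and 8.08 in controls, a difference of -0.21 (SE 0.11, limma adjusted p = 0.369), and 1 of its 5 probe sets had the opposite sign. Akt1 and Bcl2l11 thus both had lower values in all 3 p300-deleted arrays at their brightest probe sets, as did 13.2% of all genes. Neither passed the test.

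Akt2 encodes the Akt kinase best known for its part in the response to insulin. Brightest was 1424480_s_at, which read 8.23, 8.33 and 8.07 in p300-deleted arrays, against 8.29, 8.18 and 8.002 in controls. The second, 1421324_a_at, read 6.18, 6.14 and 6.22 in p300-deleted arrays, against 6.24, 6.08 and 6.01 in controls. The groups overlapped in both, with differences of 0.05 (SE 0.12, limma adjusted p = 0.870, 95% interval -0.22 to 0.33) and 0.07 (SE 0.10, adjusted p = 0.836). Probe sets of the _a_at and _s_at kinds can bind several transcripts.

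Foxo1 encodes the transcription factor that Akt restrains, and 1 of its probe sets had the most negative difference of the 21. Its brightest probe set, 1416983_s_at, read 9.55, 9.52 and 9.56 in p300-deleted arrays, against 9.89, 9.72 and 9.58 in controls. All p300-deleted arrays were lower, by 0.02 at the closest pair of arrays, and the difference was -0.19 (SE 0.11, limma adjusted p = 0.424, 95% interval -0.44 to 0.07).

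Its second brightest probe set, 1416981_at, read 8.97, 8.74 and 9.10 in p300-deleted arrays, against 9.80, 9.79 and 9.29 in controls. The p300-deleted arrays were again all lower, with control 3 nearest to them. The difference was -0.69 (SE 0.16, limma adjusted p = 0.115, 95% interval -1.06 to -0.31). At an adjusted p under 0.05 it passed in 2 of 17 alternatives, at -0.86 without control 3 (adjusted p = 0.0292) and at -0.79 with array weights (adjusted p = 0.0285). With the 18S reading of each array as a covariate it was -0.41 (adjusted p = 0.333), and with the Gapdh value -0.56 (adjusted p = 0.386).

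The remaining Foxo1 probe sets did not share that size. Probe set 1416982_at read 8.12, 8.15 and 8.18 in p300-deleted arrays, against 8.34, 8.04 and 8.20 in controls, with a difference of -0.04 (SE 0.11, limma adjusted p = 0.908, 95% interval -0.30 to 0.21). Probe set 1456529_at, at 3.36, 3.69 and 3.75 in p300-deleted arrays, against 3.30, 3.60 and 3.30 in controls, lay below the 3.91 under which genes were left out as dim. The value of -0.69 at 1416981_at thus stands at 1 of 4 probe sets, and where each probe set lies in the transcript is not known here.

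**Figure D2:**
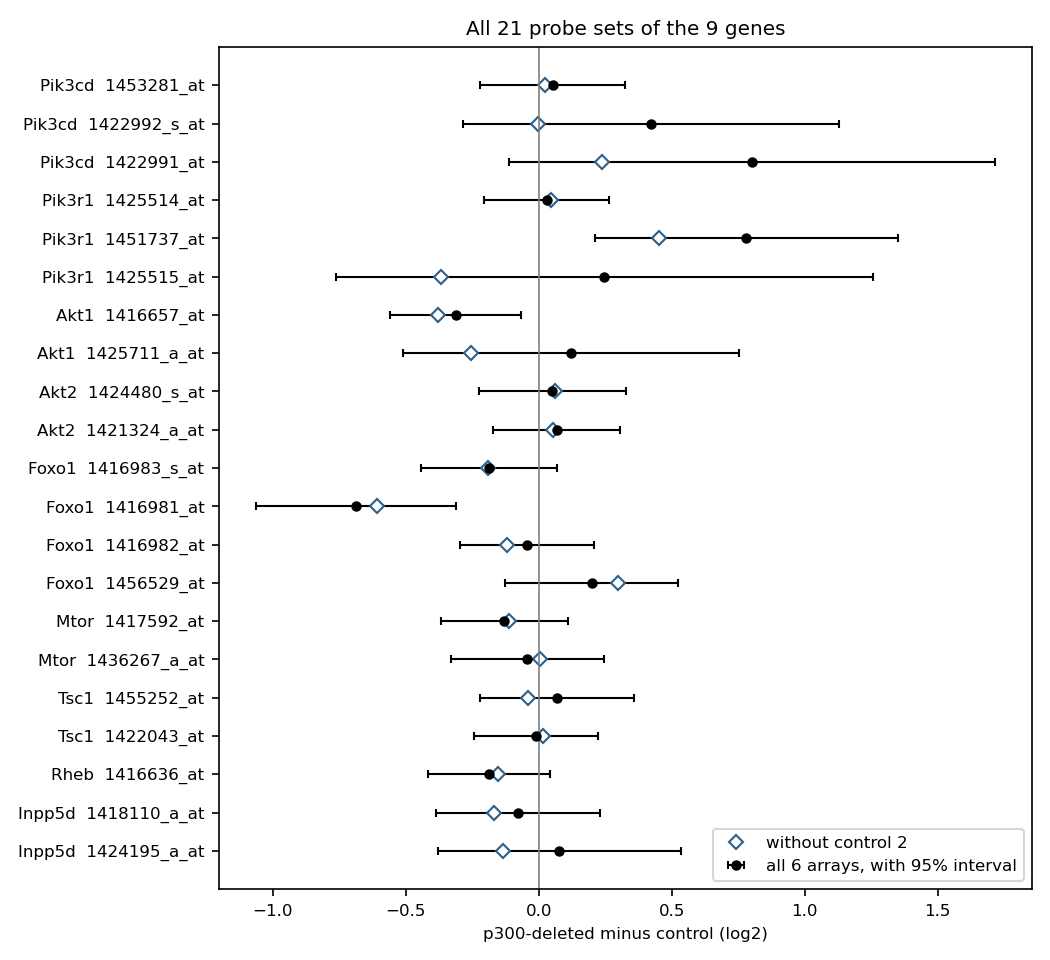
Difference of p300-deleted minus control (x axis, log2) for each of the 21 probe sets, from the brightest to the dimmest of each gene. Black points with bars are the fit to all 6 arrays with its 95% interval, and open diamonds the fit without control 2. Wide bars stand at the dimmer probe sets of Pik3cd, Pik3r1 and Akt1, and the interval of Foxo1 1416981_at (-1.06 to -0.31) lies below 0.

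Downstream of Akt, Tsc1 encodes hamartin, a subunit of the complex that switches Rheb off. Probe set 1455252_at, the brighter one, read 6.87, 6.69 and 6.85 in p300-deleted arrays, against 6.88, 6.52 and 6.81 in controls. Its other probe set, 1422043_at, read 4.56, 4.70 and 4.54 in p300-deleted arrays, against 4.54, 4.66 and 4.62 in controls. The groups overlapped in both. The differences were 0.07 (SE 0.13, limma adjusted p = 0.823, 95% interval -0.22 to 0.36) and -0.01 (SE 0.10, adjusted p = 0.979).

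Rheb, the GTPase that activates mTOR, has 1 probe set, 1416636_at. It read 9.28, 9.44 and 9.37 in p300-deleted arrays, against 9.50, 9.61 and 9.53 in controls. Every p300-deleted array was below every control, and the difference was -0.19 (SE 0.10, limma adjusted p = 0.375, 95% interval -0.42 to 0.04). The value was negative under all 19 alternatives, from -0.22 to -0.12, and passed under 0 of them (limma unadjusted p = 0.0980 with all arrays). Some of these alternatives, such as other thresholds or probe set rules, cannot change the value.

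Mtor encodes the kinase at the end of this arm. The brighter of its probe sets, 1417592_at, read 7.42, 7.24 and 7.38 in p300-deleted arrays, against 7.52, 7.52 and 7.40 in controls. Its other probe set, 1436267_a_at, read 5.55, 5.87 and 5.53 in p300-deleted arrays, against 5.69, 5.79 and 5.59 in controls. The groups overlapped in both, with differences of -0.13 (SE 0.10, limma adjusted p = 0.567, 95% interval -0.37 to 0.11) and -0.04 (SE 0.13, adjusted p = 0.923).

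Over the 21 probe sets together, 0 passed in limma, against 103 of 22626 probe sets (0.455%), with 80 of the 103 higher in p300-deleted cells and the other 23 lower. After median centring of the arrays the split over all probe sets was 97 higher and 60 lower. Without adjustment 3 of the 21 had a p under 0.05, Pik3r1 1451737_at, Akt1 1416657_at and Foxo1 1416981_at, against 14.4% of all probe sets. The arrays did not overlap between groups for 6 of the 21, against 19.5%, and without control 2 for 10 of the 21, against 30.5%. Of the 8 genes with several probe sets, 4 had the same sign in all of them, and 3 without control 2.

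Control 2 stood apart in some of these probe sets. In 6 of the 21 probe sets control 2 was more than 0.5 below the mean of the other controls, with differences down to -1.84. The same held in 5.82% of all probe sets for control 2, in 2.07% for control 1 and in 3.21% for control 3. The 6 are 2 of Pik3cd, 2 of Pik3r1, 1 of Akt1 and 1 of Inpp5d, and 0 of them are the brightest of their gene. The limit of 0.5 was chosen after the values were seen. Control 2 also had the highest 3' over 5' Gapdh value, 0.59. With that value as a covariate the values were -0.39 and -0.26 for Pik3cd 1422992_s_at and 1422991_at, 0.18 and -0.97 for Pik3r1 1451737_at and 1425515_at, -0.61 for Akt1 1425711_a_at and -0.31 for Inpp5d 1424195_a_at, with limma adjusted p of 0.423, 0.657, 0.758, 0.055, 0.155 and 0.612.

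**Figure D3:**
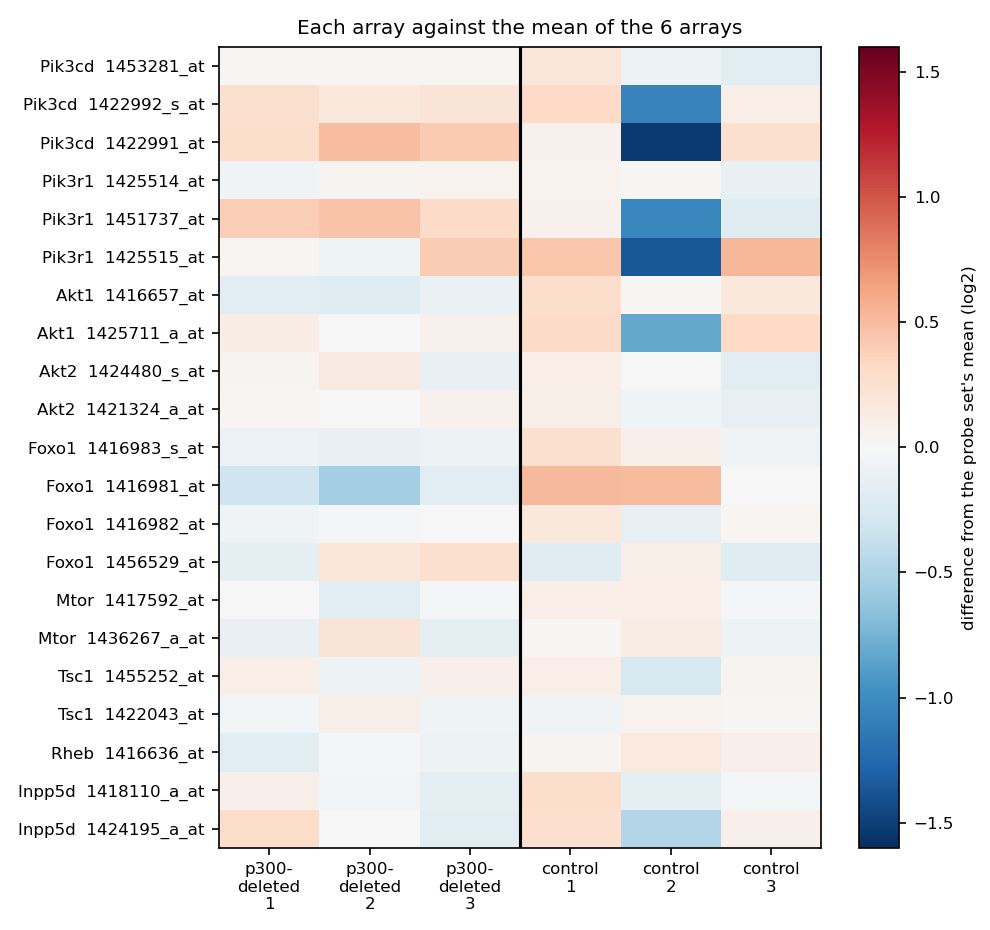
Value of each array minus the mean of the 6 arrays (colour, log2) for the 21 probe sets (rows) in the 6 arrays (columns), p300-deleted to the left of the line and control to the right. The dark blue cells of Pik3cd, Pik3r1 and Akt1 all lie in the column of control 2, and the row of Foxo1 1416981_at is blue in p300-deleted arrays and red in controls 1 and 2.

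The wider pathway was read through 10 lists holding 120 other genes, of which 93 have a probe set of their own, 8 were left out as dim and 85 were tested. Of the 85, 0 rose, 1 fell and 84 did not pass in limma, against 0.991% of all genes higher and 0.726% lower. The gene that fell was Foxp3, listed as a Foxo1 target, with a limma adjusted p of 4.36e-07, and this fall was known when the list was made. Its fitted difference of -6.53 has no fixed size, since the p300-deleted readings lay near background. With no adjustment, 7 had a p under 0.05 and were higher and 9 were lower, where 8.21% and 9.89% of all genes were. The median difference of the 85 was -0.05, against -0.03 for all genes tested. With array weights 16 of the 85 passed, 6 higher and 10 lower, in a fit that called 1019 of 8675 genes. The 16 were Cdkn1b, Dok2, Eif4e, Foxp3, Gab3, Gabarapl1, Icos, Il2rb, Il7r, Mlst8, Phlpp1, Rps6, Rraga, Sesn1, Sgk1 and Trib1. Rptor, Rps6kb1 and Pik3ip1 are among the genes not analysed here, and Rictor was dim.

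Among 12 upstream receptors and adaptors 0 passed (median -0.10). Icos, a costimulatory receptor that recruits PI3K, read 9.36, 8.85 and 9.47 in p300-deleted arrays, against 9.91, 9.43 and 10.42 in controls (difference -0.69, SE 0.25, limma adjusted p = 0.205), and the groups overlapped. Trat1, a transmembrane adaptor of the T cell receptor complex, was at -0.38 (SE 0.16, adjusted p = 0.267). Among 7 other PI3K subunits and regulators 0 passed (median 0.03), with Pik3c3, the kinase of autophagy, at 0.30 (adjusted p = 0.292) and the catalytic subunit Pik3ca at 0.11 (adjusted p = 0.767). Among 5 other phosphoinositide phosphatases 0 passed (median -0.01), with Inppl1, the SHIP1 paralogue SHIP2, at 0.28 (adjusted p = 0.257) and Inpp5j at -0.14 (adjusted p = 0.510).

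Among 13 partners and regulators of Akt 0 passed (median -0.12), and for 6 of them, against 23.7% of all genes, p300-deleted and control values did not overlap. Phlpp1, a phosphatase that inactivates Akt, read 7.005, 7.06 and 7.17 in p300-deleted arrays, against 7.75, 7.61 and 7.41 in controls. All p300-deleted arrays were lower, with a difference of -0.51 (SE 0.12, limma adjusted p = 0.076, 95% interval -0.79 to -0.24). It passed without control 3 (-0.60, adjusted p = 0.0412) and under array weights (-0.62, adjusted p = 0.00861), and with the 18S covariate it was -0.39 (adjusted p = 0.284). Trib1, a pseudokinase, read 8.13, 7.85 and 7.62 in p300-deleted arrays, against 7.05, 7.40 and 7.46 in controls, higher in all p300-deleted arrays by 0.56 on average (SE 0.16, limma adjusted p = 0.125).

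Around TSC and mTOR, 0 of 6 TSC partners and inputs passed (median -0.07), with Ddit4, an inhibitor of mTOR induced by stress, at 0.46 (SE 0.19, limma adjusted p = 0.246) and Tsc2, the partner of Tsc1, at -0.23 (adjusted p = 0.371). Of 5 mTOR complex subunits 0 passed (median -0.10). Mlst8, a subunit of both mTOR complexes, read 6.33, 6.28 and 6.18 in p300-deleted arrays, against 6.74, 6.53 and 6.52 in controls. It was lower in all p300-deleted arrays, with a difference of -0.33 (SE 0.11, limma adjusted p = 0.168), and its second probe set was at -0.05. Tti1, which helps assemble the mTOR complexes, was at 0.16 (adjusted p = 0.555).

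Of 13 genes of amino acid sensing 0 passed (median -0.09). Sesn1, a sestrin that restrains mTOR and a known Foxo target, read 9.27, 9.02 and 9.38 in p300-deleted arrays, against 9.98, 9.84 and 9.54 in controls. Its difference was -0.56 (SE 0.15, limma adjusted p = 0.101), with values from -0.74 to -0.56 over its 3 probe sets, and it passed without control 3 (-0.68, adjusted p = 0.0455) and under array weights (-0.72, adjusted p = 0.0136), and with the 18S covariate it was -0.33 (adjusted p = 0.343). Rraga, a GTPase that brings mTOR to lysosomes, was at 0.29 (adjusted p = 0.327).

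Of 10 mTOR outputs 0 passed (median 0.0049). Eif4e, the cap-binding factor of translation, read 8.92, 9.15 and 8.69 in p300-deleted arrays, against 8.25, 8.24 and 8.49 in controls. It was higher in all p300-deleted arrays, with a difference of 0.59 (SE 0.14, limma adjusted p = 0.079), while its 3 probe sets ranged from 0.07 to 0.59. Rps6, a ribosomal protein phosphorylated downstream of mTOR, was at 0.33 (adjusted p = 0.188), and its second probe set was at -0.22.

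The Foxo1 paralogues were close to 0, with Foxo3 at -0.12 (SE 0.11, limma adjusted p = 0.606) and Foxo4 at 0.10 (SE 0.12, adjusted p = 0.727), and 1 of the 3 probe sets of Foxo3 had the opposite sign. Of 14 tested Foxo1 targets, 0 rose, 1 fell and 13 did not pass, with a median of -0.04 and 7 positive and 7 negative values. For 8 of the 14, Foxp3 among them, p300-deleted and control values did not overlap, against 23.7% of all genes. Of these 8, 3 were higher and 5 lower in p300-deleted arrays. Beside Foxp3, the next 3 targets were chosen for their values. Cdkn1b, the cell cycle inhibitor p27, read 9.68, 10.03 and 9.58 in p300-deleted arrays, against 8.59, 7.67 and 9.01 in controls (difference 1.34, SE 0.30, limma adjusted p = 0.0715), and its second probe set was at -0.34. Cdkn1b passed without control 3 (1.63, limma adjusted p = 0.0264) and under array weights (1.27, adjusted p = 0.00845). With the 18S covariate it was 0.92 (limma adjusted p = 0.265). Il7r, the IL-7 receptor, was at -0.46 (adjusted p = 0.172) and Gabarapl1, an autophagy gene, at 0.49 (adjusted p = 0.126). The trafficking genes Klf2, S1pr1 and Ccr7 were at 0.09, 0.02 and 0.06, with adjusted p of 0.805, 0.967 and 0.871.

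**Figure D4:**
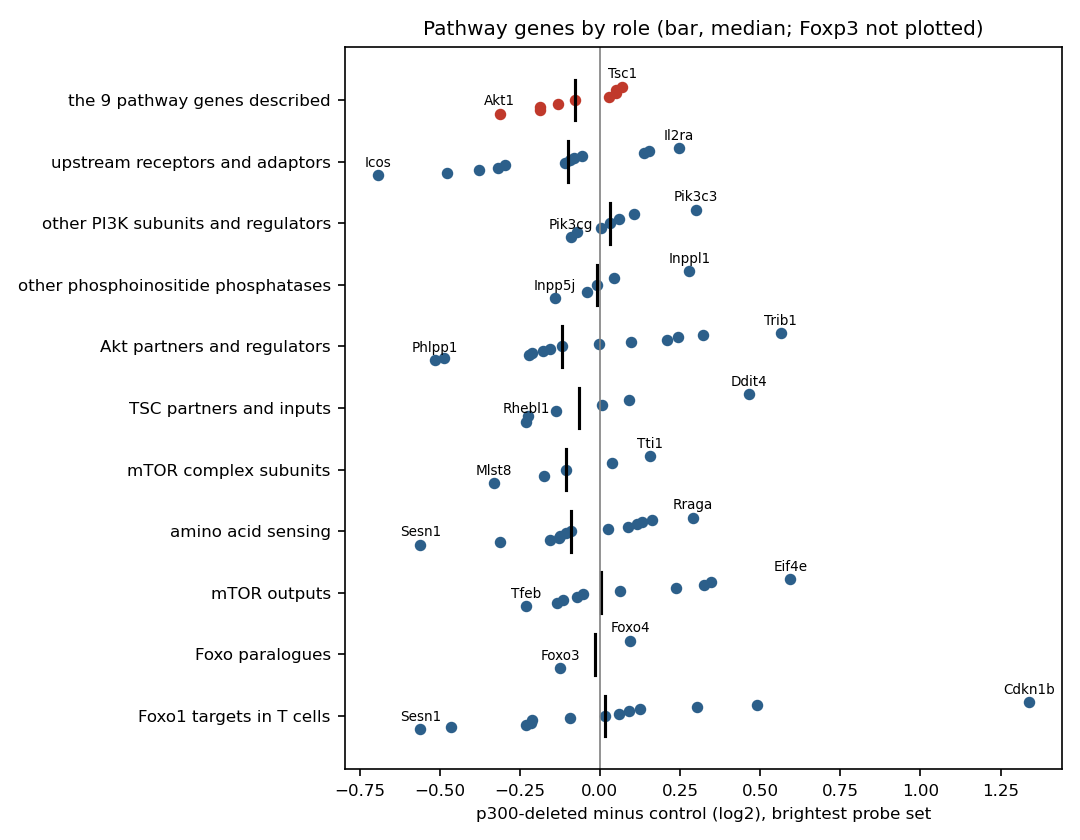
Difference of p300-deleted minus control (x axis, log2, brightest probe set) for the 9 genes (red) and the other tested pathway genes by role (blue), with a bar at the median of the points and the lowest and highest gene of each row named. Foxp3, at a fitted -6.53, is not plotted and not in its row's bar. The 9 genes span -0.31 to 0.07, and the rows of the other roles lie on both sides of 0.

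The genes whose pattern over the 6 arrays was most like that of Akt1 were Gart (Pearson's r = 0.994) and Rhno1 (r = 0.989), and those most like Rheb were Psmb3 (r = 0.995) and Hars (r = 0.990). These are descriptions over 6 arrays of 2 groups, and 45 of 8674 genes had an r over 0.95 with Akt1 and 31 with Rheb. The differences of Gart, Rhno1, Psmb3 and Hars were -0.34, -0.28, -0.25 and -0.26, and 0 of the 4 passed (limma adjusted p of 0.141, 0.218, 0.246 and 0.238).

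Markers of other cells had values on both sides of 0. Of 7 tested plasma cell markers 5 rose, and of 8 mast cell and basophil markers 6 rose. Of 8 natural killer and cytotoxic markers 1 rose, with 4 positive and 4 negative values. All 5 B cell markers (median -0.30) and all 4 platelet and erythroid markers (median -0.23) had negative values, and limma called 0 of each (0 with an unadjusted p under 0.05). The 6 T cell markers (median 0.22) and 2 CD8 T cell markers were all positive, and 0 of them passed (3 and 1 at an unadjusted p under 0.05). All 12 tested myeloid markers had positive values, with 0 past the threshold in limma (7 at an unadjusted p under 0.05). Of 19 cell cycle genes 18 had negative values (median -0.88), and 6 fell in limma, against 0.726% of all genes. At an unadjusted p under 0.05, 16 of the 19 were lower, against 9.89% of all genes. Relative to each gene's mean, plasma cell markers averaged 0.24 to 0.78 in p300-deleted arrays and -0.56 to -0.46 in controls, and myeloid markers 0.03 to 1.45 in p300-deleted arrays and -0.98 to -0.12 in controls. Mast cell and basophil markers averaged 0.30 to 0.96 in p300-deleted arrays and -0.70 to -0.53 in controls. The 9 pathway genes averaged -0.04 to -0.03 in p300-deleted arrays and -0.03 to 0.16 in controls, which overlap. The part of other cells in the values of the 9 genes was not tested.

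**Figure D5:**
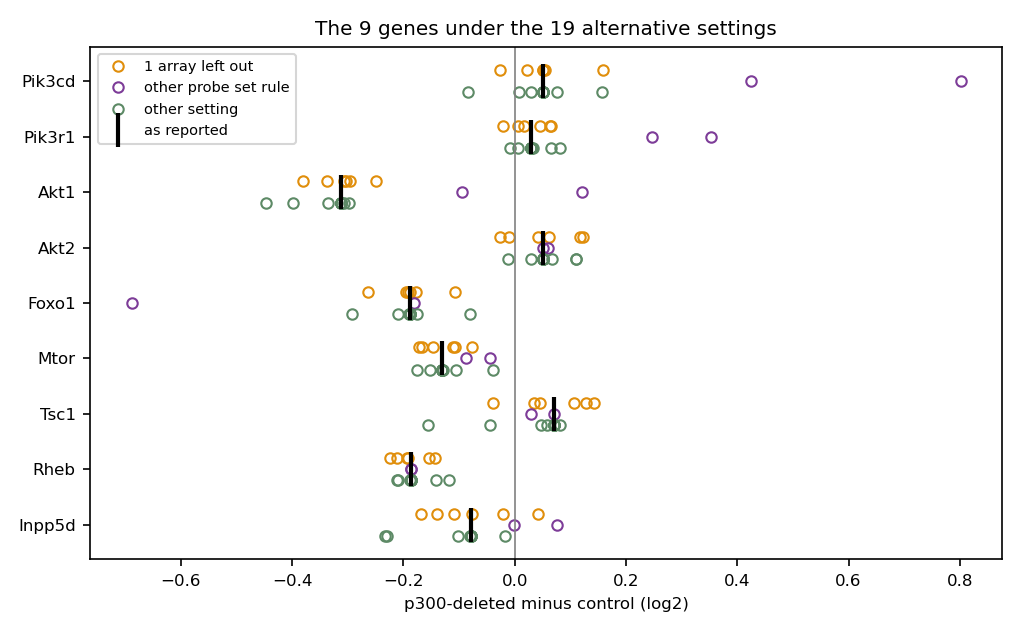
Difference of p300-deleted minus control (x axis, log2) for the 9 genes as reported (black bar) and under 19 alternative settings (open circles), coloured by whether 1 array was left out, another rule chose the probe set or another setting was changed. Foxo1, Mtor and Rheb stay below 0 throughout, though some settings, such as other thresholds, cannot move a circle from the bar. The purple circles of Pik3cd, Pik3r1, Akt1 and Foxo1, which use other probe sets, lie farthest from the bars.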

How the data were processed

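The values of the 6 arrays were deposited as log2 values, 1 per probe set and array, and come from RMA, as the submitters' processing notes state, with no version given. RMA corrects background, quantile-normalizes the arrays and summarises probes, so a change in total RNA per cell is not visible and dim probe sets are compressed. From these values, 20380 probe sets with 1 symbol were reduced to the brightest of each of 12393 genes (highest mean over all 6 arrays), and the dimmest 30% (means below 3.91) were left out. The test was the two-sided moderated test of limma 3.58.1 (lmFit, eBayes; R 4.3.3), without covariates and with Benjamini-Hochberg adjustment over 8675 genes. A second fit took all 22626 non-control probe sets. Both were tested on simulated data, with noise drawn independently for each feature. The gene fit recovered 28%, 82.8% and 96.6% of changes of 0.5, 1 and 2 in size, with 4.41% false calls. The probe set fit recovered 15.4%, 69.8% and 95%, with 3.98% false calls. Changes as small as those of the 9 genes (-0.31 to 0.07) were not simulated. Intervals are 95% intervals of the moderated fit, and 3 arrays per group limit the precision. The 9 genes, the lists and the alternatives were chosen with earlier results of these data known. All 9 genes were named, and from each other list up to 4 genes past the threshold or, where none passed, the 2 with the smallest p. Any other was chosen after its values were seen.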

Additional observations from a re-analysis of the deposited data

How the results depend on the processing

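With 0 of the 9 genes and 0 of their 21 probe sets past the threshold, the alternatives that made calls were array weights (1 gene, 1 probe set), an unadjusted p under 0.05 (1 gene, 3 probe sets) and, for probe sets, the fits without 1 array (0 to 1). The direction of 6 of the 9 genes turned under some alternative. Another probe set (the one with the largest variance) put Akt1 at 0.12 and Inpp5d at 0.077. Array weights put Pik3cd at -0.084, Pik3r1 at -0.0084, Akt2 at -0.011 and Tsc1 at -0.044, and the Gapdh covariate put Tsc1 at -0.16. Without 1 array, Pik3cd ran from -0.026 to 0.16, Pik3r1 from -0.021 to 0.065, Akt2 from -0.026 to 0.12, Tsc1 from -0.040 to 0.14 and Inpp5d from -0.17 to 0.041. Foxo1, Mtor and Rheb were negative under all 19 alternatives. Some of the 19 cannot change a difference, namely other thresholds, other filters on dim genes, trend and robust variance and the replicate block. For Rheb, with 1 probe set, the other probe set rules cannot change it either.

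Over all genes the count of 149 became 95 with the mean of all probe sets, 48 with the largest variance, 1019 with array weights, 15 with the 18S covariate, 48 with the Gapdh covariate, 399 at an adjusted p under 0.10, 1570 at an unadjusted p under 0.05, and 9 to 230 without 1 array. Other pathway genes went to 16 calls with array weights, 4 and 16 at the 2 looser thresholds, and 1 to 5 without 1 array (the 5 without control 3). Over all probe sets the count of 103 became 157 with median centring, 158 with trend and robust variance, 643 with array weights, 20 with the 18S covariate, 52 with the Gapdh covariate, 396 and 3250 at the looser thresholds and 24 to 384 without 1 array. With the replicate number as a block, 98 genes and 65 probe sets passed and 0 of the 9 genes. Deviations of same-numbered arrays correlated at -0.07, 0.12 and -0.12, and those of differently numbered arrays at -0.19 to 0.23. With 3 arrays per group these values cannot show whether same-numbered arrays share an animal, litter or day, which the labels do not state. Which feature of each setting moved the counts was not tested.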
